A study of Mus musculus with 2 samples.

Results

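The C/EBP genes encode a small family of transcription factors, and their RNA was compared in 2 libraries of mouse chondrocytes, the cells that make cartilage. The 6 symbols considered were Cebpa, Cebpb, Cebpd, Cebpe, Cebpg and Ddit3, taken by symbol from the 13138 rows of the deposited table. Of these, 5 were in the table and all 5 passed the minimum mean level of 50 on the count scale, which left 12809 genes in all. Cebpe was not analysed here. The primary chondrocytes, of strain C57Bl/6, were grown as micromass cultures, dense drops of cells that lay down cartilage matrix. One library came from cells given an adenovirus for Cre recombinase and carries the genotype label hdac3-knockout; the other came from cells given a GFP control adenovirus and is labelled wild-type. The labels do not give the conditional allele, the age or number of the animals, or how many dishes were pooled. With 1 library per group there was no replicate check, no p-value is given, and each difference compares these libraries rather than the conditions. Differences are Cre minus GFP on the log2 scale of the deposited normalized counts, and where values come in pairs the Cre-labelled library is given first.

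C/EBP proteins bind DNA through a basic region and pair through a leucine zipper, either with themselves or with each other. C/EBPbeta and C/EBPdelta are induced by interleukin 1 and interleukin 6 type cytokines and activate acute-phase and inflammatory genes. C/EBPalpha acts in the differentiation of fat, liver and myeloid cells. C/EBPgamma lacks a strong activation domain, and CHOP, the product of Ddit3, forms dimers that do not bind the usual C/EBP sites; both can hold back their partners. In cartilage, C/EBPbeta is known for a role in chondrocyte hypertrophy and in the activation of Mmp13. Hdac3 is a histone deacetylase that works within nuclear receptor corepressor complexes.

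Promoter sequence was taken from RefSeq on build GRCm38.p6, as the 250 bases before and 50 after a gene's start, and 4 of the 6 symbols matched, namely Cebpa, Cebpb, Cebpg and Ddit3. The promoters of Cebpb, which was higher in the Cre-labelled library, and of Cebpa and Ddit3, which were not, are shown for comparison. Capitals mark matches on either strand to any of 8 motifs. These were TTGCNNAA for C/EBP factors, TGATGNAA for the composite element of C/EBP and ATF factors, TTCCNNGAA for STAT factors, GGANTTTCC for NF-kappaB, TGANTCA for AP-1, TGACG for the core of the cAMP response element (CRE), TATAAA for the TATA box and CCAAT for the box named after it. Capital stretches can join where matches overlap.
Cebpb, chr2:167688665-167688964, plus strand: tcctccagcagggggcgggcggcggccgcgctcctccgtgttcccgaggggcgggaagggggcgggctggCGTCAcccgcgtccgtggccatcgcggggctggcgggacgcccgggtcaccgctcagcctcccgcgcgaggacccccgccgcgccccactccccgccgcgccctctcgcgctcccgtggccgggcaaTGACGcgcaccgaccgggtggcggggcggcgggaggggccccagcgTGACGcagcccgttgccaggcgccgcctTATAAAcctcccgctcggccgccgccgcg
Cebpa, chr7:35119043-35119342, plus strand: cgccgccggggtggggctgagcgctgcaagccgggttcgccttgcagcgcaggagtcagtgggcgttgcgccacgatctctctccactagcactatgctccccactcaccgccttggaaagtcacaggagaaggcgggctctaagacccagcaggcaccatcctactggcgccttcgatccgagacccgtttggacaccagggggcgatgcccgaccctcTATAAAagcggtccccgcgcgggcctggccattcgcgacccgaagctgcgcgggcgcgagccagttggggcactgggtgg
Ddit3, chr10:127290543-127290842, plus strand: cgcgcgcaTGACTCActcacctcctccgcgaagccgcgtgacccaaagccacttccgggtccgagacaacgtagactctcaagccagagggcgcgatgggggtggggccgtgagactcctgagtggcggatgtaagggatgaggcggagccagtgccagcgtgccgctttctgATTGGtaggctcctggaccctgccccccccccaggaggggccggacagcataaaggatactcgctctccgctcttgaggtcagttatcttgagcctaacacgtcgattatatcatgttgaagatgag

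In the Cebpb window the CRE core matched at 3 places and the TATA box at 1. This TATA match began after the annotated start, at base 22 with the start as base 1. The CRE core was present in 20.8% of the 32851 promoter windows in the RefSeq set and the TATA box in 13.6%. The Cebpa window held a TATA box match that began 30 bases before the annotated start. The Ddit3 window held an AP-1 match, found in 7.81% of all windows, and a CCAAT match on the minus strand, found in 37.4%. The Cebpg window held 2 CCAAT matches, both on the minus strand. None of the 4 windows held the letters searched for C/EBP, STAT, NF-kappaB or the composite element, which occurred in 10.8%, 4.81%, 1.25% and 3.97% of all windows. G and C made up 80.7% of the bases in the Cebpb window, 71.7% in Cebpg, 67.3% in Cebpa and 60.7% in Ddit3. A match of letters describes the sequence only.

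Cebpd, which encodes C/EBPdelta, had the largest difference of the family. Its log2 normalized count was 11.46 in the Cre-labelled library and 10.01 in the GFP-labelled library, a difference of 1.45, or 2820 against 1032 on the count scale. It was 2.73-fold higher in the Cre-labelled library, and 34 of the 12809 genes had a larger difference in that direction. Cebpb, which encodes C/EBPbeta, had 11.13 in the Cre-labelled library and 10.21 in the GFP-labelled library. Its difference of 0.92 corresponds to 2242 against 1187 on the count scale, 1.89-fold higher, at rank 109. Only these members were at least 1.5-fold higher in the Cre-labelled library, and Cebpd alone reached 2-fold. Among all genes compared, 2.25% reached 1.5-fold in this direction and 0.734% reached 2-fold.

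Both genes also ranked near the top among genes of like abundance. Of the 500 genes nearest to Cebpd in mean level, 1 had a larger difference, and 90% of them lay between -0.25 and 0.39. Of the 500 nearest to Cebpb, 5 had a larger difference, and 90% lay between -0.24 and 0.36. The differences of the deposited values are narrower for less abundant genes, which is why genes of like level were used.

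Cebpa, Cebpg and Ddit3 lay on the other side of 0. Cebpa, which encodes C/EBPalpha, had 10.92 in the Cre-labelled library and 11.03 in the GFP-labelled library, a difference of -0.12. Cebpg, which encodes C/EBPgamma, had 11.31 and 11.44, a difference of -0.13. These differences lie within the middle 90% of the 500 genes nearest to each in mean level, which ran from -0.23 to 0.36 for Cebpa and from -0.24 to 0.33 for Cebpg. Ddit3, the stress-induced CHOP gene, had 11.32 in the Cre-labelled library and 11.69 in the GFP-labelled library, a difference of -0.37. It was 1.29-fold higher in the GFP-labelled library, and 11 of its 500 nearest genes had a lower difference. No member was 1.5-fold lower in the Cre-labelled library, a size that 0.952% of all genes reached in this direction, while 0.0703% reached 2-fold. The median over the 5 members was -0.12, against -0.00041 over all genes compared, and does not describe a family whose members divide in this way. Cebpz, which shares the name but encodes a CCAAT-binding protein outside this family, was close to level at 0.03.

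**Figure D1:**
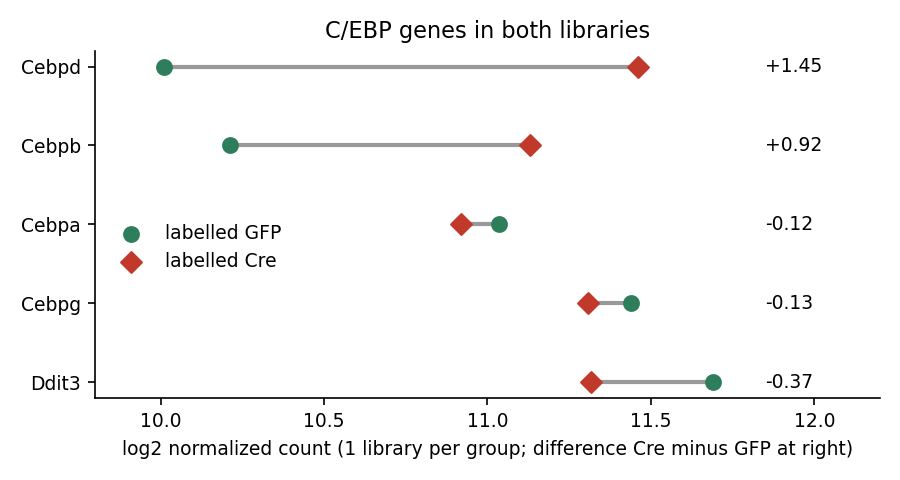
Log2 normalized counts (horizontal axis) of the 5 measured C/EBP genes in the GFP-labelled library (green circles) and the Cre-labelled library (red diamonds), 1 library per group, with the difference at the right. Cebpd and Cebpb are higher in the Cre-labelled library by 1.45 and 0.92, while Cebpa, Cebpg and Ddit3 lie between -0.12 and -0.37.

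**Figure D2:**
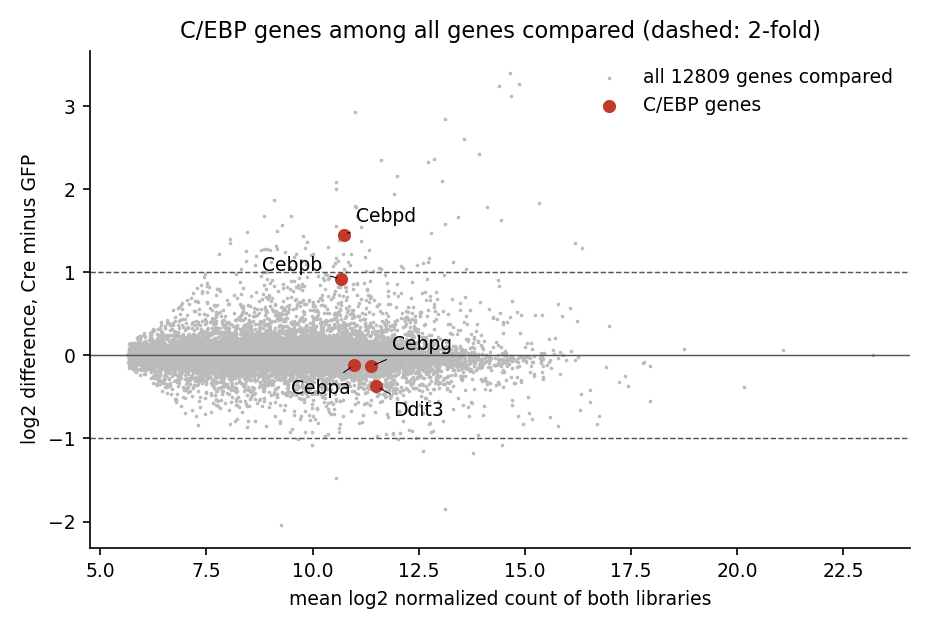
Log2 difference, Cre minus GFP (vertical axis), against the mean log2 normalized count (horizontal axis) for 12809 genes in grey and the 5 C/EBP genes in red; dashed lines mark 2-fold. Cebpd lies above the 2-fold line, Cebpb just below it, and the other three in or near the body of the cloud.

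Levels of different genes were compared per kilobase of exon, with the exon union of GENCODE M21 as the length. In the GFP-labelled library, Ddit3 had the highest normalized count per kilobase (1928), followed by Cebpa (795), Cebpb (789), Cebpg (494) and Cebpd (276). In the Cre-labelled library, Cebpb (1491) and Ddit3 (1489) were level, followed by Cebpd (753), Cebpa (734) and Cebpg (451). Cebpd was thus last in one order and in the middle of the other, and Cebpb stood in the middle of one and at the top of the other. With 1 library per group the spread of these levels is unknown, so neighbours in either order cannot be told apart by a test.

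The annotated length changes these levels, most for Ddit3 and Cebpd. Ddit3 has 1713 bases of exon as a union but 890 in the transcript paired with a RefSeq mRNA, and Cebpd has 3746 bases in GENCODE but 2260 in RefSeq. Cebpg has 5621 bases as a union and 4709 in the paired transcript, and the lengths of Cebpa and Cebpb changed little. Under these other lengths, chosen after the data were seen, the order in the GFP-labelled library was the same, and in the Cre-labelled library Ddit3 came first and Cebpb next, with the rest in the same order. Cebpb and Cebpd together held 45.6% of the summed per-kilobase value of the family in the Cre-labelled library and 24.9% in the GFP-labelled library, and between 35.1% and 39.7% against between 17.3% and 19.6% under the other lengths. The per-kilobase sum of Cebpb and Cebpd over that of Cebpg and Ddit3 was 1.16 against 0.44, and with the other lengths it was 0.66 against 0.25 or 0.80 against 0.29. Cebpb and Cebpd are the members already given as higher, and Cebpg and Ddit3 lay below 0. The direction of these shares and ratios therefore restates those differences and adds no further evidence. Cebpa is left out of the ratio. These ratios are of RNA. C/EBPbeta is made as longer activating and shorter inhibitory forms from 1 messenger RNA, which counts per gene do not separate.

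**Figure D3:**
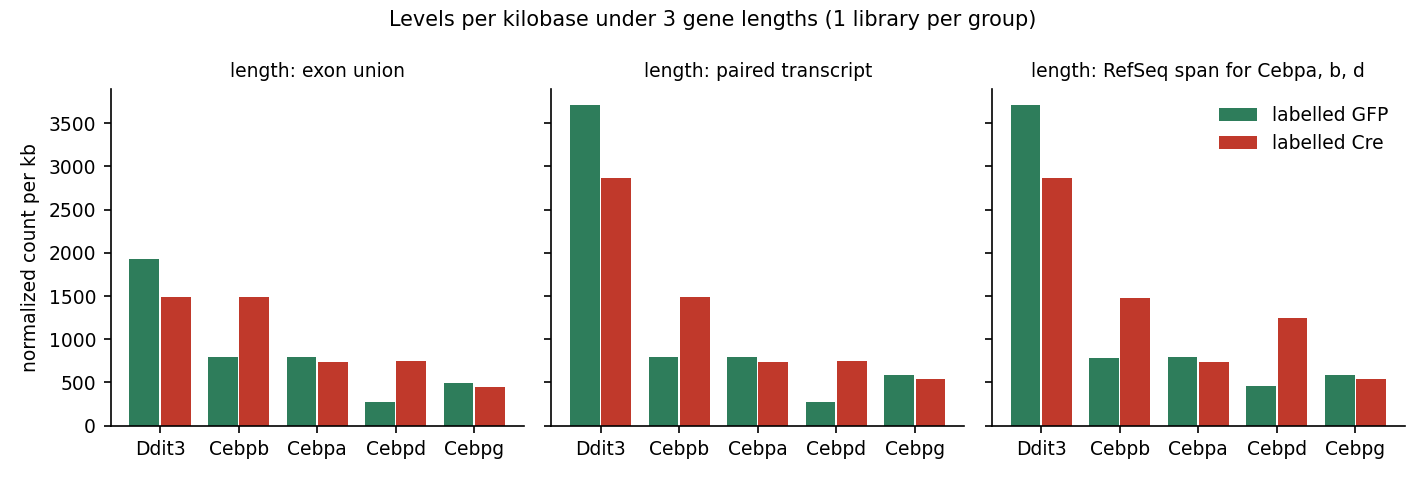
Normalized count per kilobase (vertical axis, from 0) of the 5 C/EBP genes in the GFP-labelled (green) and Cre-labelled (red) libraries, 1 library per group, under 3 choices of gene length. Under each choice Cebpd is the lowest of the family in the GFP-labelled library and in the middle of the order in the Cre-labelled library.

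The family is spread over 4 chromosomes in these data (GRCm38, GENCODE M21). Cebpd is a protein-coding gene on the plus strand of chromosome 16, 15887286 to 15891031, and Cebpb on the plus strand of chromosome 2, 167688915 to 167690418. Cebpa (chromosome 7, 35119293 to 35121928, plus strand) and Cebpg (chromosome 7, 35046422 to 35056573, minus strand) lie 62.7 kb apart, and their differences were alike at -0.12 and -0.13. Ddit3 is on the plus strand of chromosome 10, 127290774 to 127296288. Genes on the opposite strand overlap some of these exons, and the strand setting of the counting is not given in the sources used here. Tmem189 shares 312 bases with Cebpb, 20.7% of its exons, and its log2 values were 9.76 in the Cre-labelled library and 9.58 in the GFP-labelled library, a difference of 0.18. Spidr shares 562 bases with Cebpd, 15.0% of its exons. No value was found under the symbol Spidr, so its difference is not given and it is not among the neighbours described next. Mars shares 68 bases with Ddit3 and differed by -0.22. Reads from the shared stretches cannot be assigned to one gene without strand.

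The neighbours of Cebpd and Cebpb that could be placed differed less than these genes themselves. Only the 90.6% of rows matched to GENCODE by symbol and chromosome could be placed. Of 7 genes compared whose start lies within 500 kb of that of Cebpd, none was 1.5-fold higher or lower, and they ranged from -0.22 for Prkdc to 0.07 for Yars2. Around Cebpb, 10 genes ranged from -0.40 for Ptgis to 0.57 for Ptpn1, a phosphatase gene that lies 242 kb from the end of Cebpb. Around Cebpa 8 genes ranged from -0.28 for Slc7a10 to 0.05 for Lrp3. Around Ddit3, 29 genes ranged from -0.53 for Gli1 to 0.69 for Ndufa4l2, so Ddit3 lay inside the range of its neighbours. This window was chosen after the data were seen.

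**Figure D4:**
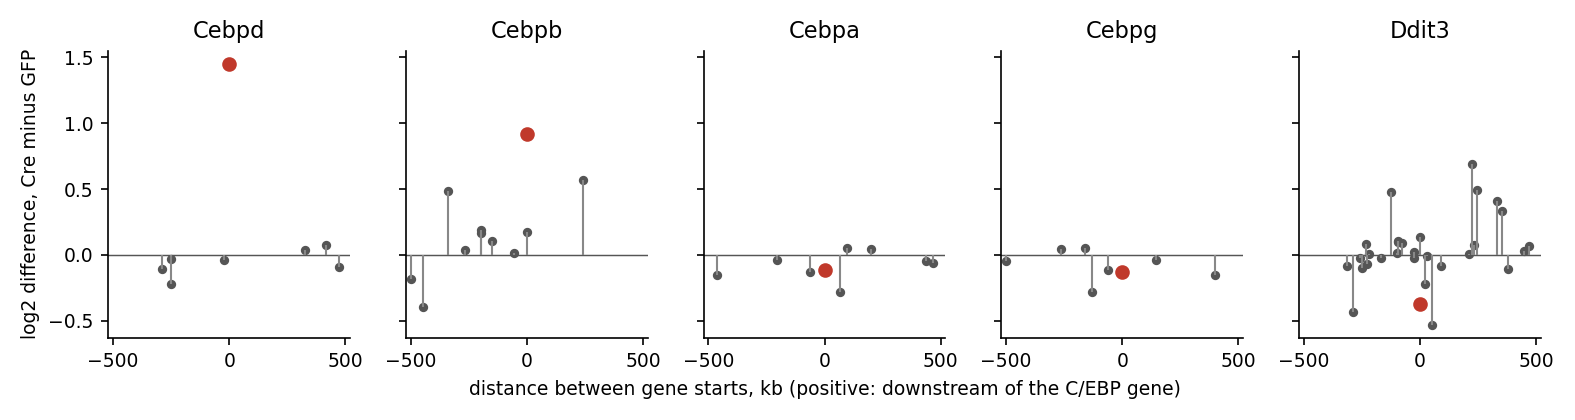
Log2 difference, Cre minus GFP (vertical axis), of each C/EBP gene (red, at 0 kb) and of the genes compared within 500 kb (grey), by the distance between gene starts in kb. Cebpd at 1.45 and Cebpb at 0.92 lie above all neighbours matched to GENCODE, while Cebpa, Cebpg and Ddit3 lie among theirs.

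The genes closest to each of the higher members in their pair of log2 values were found by Euclidean distance over the 2 libraries. For Cebpd these were Ptges, a prostaglandin E synthase gene, at a distance of 0.07, the secreted lipoprotein lipase inhibitor gene Angptl4 at 0.16 and the gelatinase gene Mmp9 at 0.16. For Cebpb they were the chromatin remodelling gene Baz1a at 0.08, the xanthine dehydrogenase gene Xdh at 0.13 and Cd14, which encodes a coreceptor for lipopolysaccharide, at 0.14. A likeness over 2 libraries is a description of level and difference only.

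The next list holds genes of the cytokine, STAT3, CREB and glucocorticoid routes, which are known to induce Cebpb and Cebpd. Genes of the cytokine and STAT3 routes were mostly higher in the Cre-labelled library. Those of the CREB route lay near 0, and those of the glucocorticoid route divided. Of 25 measured genes on the whole list, 21 lay above 0, where 49.9% of all genes compared did, and the median was 0.31. Those higher by 1.5-fold or more numbered 3, of which 2 reached 2-fold, and none was 1.5-fold lower. The shares of all genes compared were 2.25% for 1.5-fold higher, 0.734% for 2-fold higher and 0.952% for 1.5-fold lower. Nfkbiz, which encodes a nuclear cofactor of NF-kappaB, had 11.89 in the Cre-labelled library and 10.21 in the GFP-labelled library, a difference of 1.68. Socs3, a feedback inhibitor of STAT3 signalling, differed by 1.10, the oncostatin M receptor gene Osmr by 0.72 and the interleukin 1 receptor gene Il1r1 by 0.58. Stat3 itself, named after its value was seen, had 13.02 and 12.70. Creb1, which encodes the factor that binds the CRE, was level at -0.0018. The 4 genes below 0 were Creb1, Il11ra1 (-0.13), the glucocorticoid receptor gene Nr3c1 (-0.20) and Tsc22d3 (-0.33), the last 3 named after their values were seen. Of the CREB route, Crtc1, Crtc2 and Crtc3 differed by 0.01, 0.13 and 0.01. Of the glucocorticoid route, Fkbp5 and Per1 differed by 0.08 and 0.31. These genes, too, were named after their values were seen. Interleukin 6 (Il6) and interleukin 1 beta (Il1b) were not analysed here.

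Genes whose proteins modify or degrade C/EBP proteins, or act as their cofactors, lay on both sides of 0. Of 26 measured genes, 14 lay above 0 and 12 below, with a median of 0.01. None reached 1.5-fold in either direction. Of all genes compared, 2.25% did so upwards and 0.952% downwards, so its absence among 26 genes says little. The lowest was Trib3 at -0.28, a pseudokinase gene that is itself a target of CHOP, followed by the chromatin remodelling gene Smarca2 at -0.26. Trib1, a pseudokinase gene whose protein directs C/EBPalpha to degradation, differed by 0.23, and the cell cycle kinase gene Cdk2 by 0.20. Mapk3, the ERK1 kinase gene, was nearest to 0 at 0.0017. Activity of these proteins is not measured by RNA.

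Acute-phase and inflammatory genes with reported C/EBP control were higher in the Cre-labelled library. All 20 measured genes, of 32 listed, lay above 0, with a median of 1.71. A 1.5-fold difference was reached by 18 of them and a 2-fold difference by 15, against 2.25% and 0.734% of all genes compared. Saa3, an acute-phase serum amyloid gene, differed by 3.40, and the lipocalin gene Lcn2 had 16.24 in the Cre-labelled library and 13.12 in the GFP-labelled library, a difference of 3.12. The neutrophil chemokine genes Cxcl1 and Cxcl5 differed by 2.93 and 2.84. Il1rn, the interleukin 1 receptor antagonist gene, was the least different at 0.13. These genes were listed with the high values of several of them known, so their direction is not independent evidence, and many are also known targets of NF-kappaB. Macrophage markers, which include Cd14 and Lyz2 of this list, were in part higher too. Of 13 measured, 9 lay above 0, 2 reached 2-fold upwards and 1 was 1.5-fold lower, with a median of 0.22. The shares of all genes compared were 49.9% above 0, 0.734% at 2-fold upwards and 0.952% at 1.5-fold lower. The macrophage surface gene Emr1 differed by 1.08, Cd14 by 1.04 and Lyz2 by 0.84, while the mannose receptor gene Mrc1 lay at -0.73, the chemokine receptor gene Cx3cr1 at -0.34 and the lysosomal gene Cd68 at -0.05. Their summed normalized count was 50578 in the Cre-labelled library and 32923 in the GFP-labelled library, and 21596 and 16725 over the 12 markers without Lyz2. Defining macrophage markers were present in both libraries, with Csf1r at 11.43 and 11.34 and Ptprc at 9.94 and 9.68, and the lowest log2 values of a measured marker were those of Aif1, at 6.31 and 6.04. The macrophage markers given here were named after their values were seen. C/EBP genes are expressed in macrophages too, and the part of these cells in the differences of Cebpb and Cebpd was not tested. In bulk RNA, more cells of a type and more RNA per cell cannot be told apart.

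Promoter windows were available for 14 of these 20 genes, 16 windows in all, and 7 of the windows (43.8%) held the C/EBP letters TTGCNNAA on either strand, against 10.8% of all windows. The list was made of genes with reported C/EBP control, so the share is a property of the choice. Other motifs were found too. AP-1 was in 3 of the 16 windows (18.8%, against 7.81% of all windows). NF-kappaB (in Cxcl1) and STAT (in Steap4) were each in 1 (6.25%, against 1.25% and 4.81%). The CRE core was in 18.8%, the TATA box in 18.8% and CCAAT in 12.5%, against 20.8%, 13.6% and 37.4%. The composite element was in none. All 7 windows with the C/EBP letters are shown by the match in capitals with flanking bases, in the direction of the gene.
Saa3, chr7:46715757-46715786, minus strand: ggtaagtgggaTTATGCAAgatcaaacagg
Lcn2, chr2:32387937-32387966, minus strand: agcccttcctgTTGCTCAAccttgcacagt
Steap4, chr5:7960374-7960403, plus strand: cacagctcctcTTGCGAAAtcaagcgggcc
Mt2, chr8:94172595-94172624, plus strand: aagagggccgcTTGCAGAAttcgggtcgtg
C3, chr17:57228163-57228192, minus strand: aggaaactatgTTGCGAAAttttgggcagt
Ptgs2, chr1:150099951-150099980, plus strand: cgctgcggttcTTGCGCAActcactgaagc
Lyz1, chr10:117293059-117293088, minus strand: gagcccaatctTTAAGCAAtttgaaataaa

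The match in Saa3 began 99 bases before the annotated start, that in Steap4 at 87 bases, that in Ptgs2 at 69, that in C3 at 45, that in Mt2 at 12, that in Lcn2 at 216 and that in Lyz1 at 209. The Ptgs2 match is a palindrome and so reads the same on both strands. The metalloreductase gene Steap4 differed by 2.43, the metallothionein gene Mt2 by 2.10, the complement gene C3 by 1.79, the inducible cyclooxygenase gene Ptgs2 by 1.22 and the lysozyme gene Lyz1 by 0.91. The genes with a window and no such match were Cxcl1 at 2.93, the protease inhibitor gene Serpina3n, which was 3.47-fold higher, the metallothionein gene Mt1 at 1.59, the prostaglandin E synthase gene Ptges at 1.49, Lyz2 at 0.84, Tnfaip6 at 0.72 and Il1rn at 0.13. The cartilage genes described next had 16 windows from 10 of 19 genes, and Sox6 alone had 6 of these windows. The letters were held by 4 of the 16 windows (25%). By gene, this was 4 of 10 cartilage genes, against 7 of 14 acute-phase and inflammatory genes. The 4 windows belong to Mmp3, which was higher, and to Sox5, Sox6 and Runx2, which lay at -0.27, -0.34 and -0.23. Genes in this paragraph outside the naming rule were named for their windows after their values were seen, and whether the letters go with the difference was not tested.

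Cartilage genes with a reported link to C/EBP factors divided. Of 19 measured genes, 9 lay above 0 and 10 below; the median was -0.23 and the mean 0.28. On the high side 7 passed 1.5-fold and 4 of these 2-fold, against 2.25% and 0.734% of all genes compared. On the low side 4 passed 1.5-fold and none 2-fold, against 0.952% and 0.0703%. The matrix proteases were on the high side, with the stromelysin gene Mmp3 at 3.27, the collagenase gene Mmp13 at 1.84 and the gelatinase gene Mmp9 at 1.22. Tnfsf11, which encodes the osteoclast-inducing cytokine RANKL, had 10.33 in the Cre-labelled library and 8.65 in the GFP-labelled library, a difference of 1.68. Gadd45b, whose protein has been reported to act with C/EBPbeta on Mmp13, was nearest to 0 at 0.11. Genes on the low side included Cdkn1c, a cell cycle inhibitor gene reported as a target of C/EBPbeta in hypertrophy, which had 12.68 and 13.47, and Col10a1, the hypertrophic collagen gene, at -0.87. Col2a1 and Mia1, reported to be repressed by C/EBP factors, differed by -0.38 and -0.30. Acan and Lect1, which passed 1.5-fold on the low side as Cdkn1c and Col10a1 did, lay at -0.83 and -0.69. Of 16 measured chondrocyte markers, 15 were lower, with a median of -0.48, so low values were not particular to Col2a1 and Mia1. Cdkn1c, Col10a1, Col2a1, Mia1, Acan and Lect1 were named after their values were seen. The proteases of this list, too, were listed with their values known.

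Adipogenic genes, many of them downstream of C/EBPalpha, lay mostly below 0. Of 22 measured, 16 lay below 0 and 6 above, with a median of -0.15, while 49.9% of all genes compared lay above 0. None reached 1.5-fold in either direction. Of all genes compared, 2.25% did so upwards and 0.952% downwards, so its absence among 22 genes says little. The insulin-responsive glucose transporter gene Slc2a4 differed by -0.45, the lipogenic regulator gene Srebf1 by -0.34 and the lipid droplet gene Cidec by -0.34, while the triglyceride synthesis gene Dgat2 differed by 0.33 and the desaturase gene Scd1 was level at 0.01. Pparg, the partner of C/EBPalpha in fat cells and named after its value was seen, had 9.60 and 9.69. The adipocyte marker Adipoq, a fat cell hormone gene, had 11.55 and 11.79, and the lipid droplet gene Plin1 had 10.49 and 10.54; both were named after their values were seen.

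Of 13 granulocyte genes listed, several of which depend on C/EBPepsilon in bone marrow, 7 were measured. In the Cre-labelled library 2 of them passed 1.5-fold upwards and none downwards, against 2.25% and 0.952% of all genes compared. All 7 lay above 0, where 49.9% of all genes compared did, and the median was 0.36. The antimicrobial peptide gene Camp had 8.76 in the Cre-labelled library and 7.35 in the GFP-labelled library, a difference of 1.40, and the calprotectin genes S100a8 and S100a9 differed by 0.60 and 0.48. The lactoferrin gene Ltf differed by 0.36 and the chemokine receptor gene Cxcr2 by 0.09. The part of granulocytes in these values was not tested.

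Genes of the integrated stress response, in which ATF4 induces Ddit3, lay mostly below 0. Of 31 measured genes, 24 lay below 0 and the median was -0.19, while 49.9% of all genes compared lay above 0. A 1.5-fold difference was reached upwards by 2 genes and downwards by 1, against 2.25% and 0.952% of all genes compared. The amino acid transporter gene Slc7a5 differed by -0.59 and the glutathione-degrading enzyme gene Chac1, a target of ATF4 and CHOP, by -0.56. On the other side lay the cystine transporter gene Slc7a11, with 11.78 in the Cre-labelled library and 10.76 in the GFP-labelled library, and Ddit4, an inhibitor of mTOR signalling that is also induced by hypoxia, at 0.80. Xbp1, a factor of the unfolded protein response, was level at -0.01. Atf4, named after its value was seen, had 13.52 and 13.68, a difference of -0.16 that is smaller than that of Ddit3.

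Other bZIP factors, some of which pair with C/EBP proteins, lay on both sides of 0. Of 29 measured genes, 18 lay above 0, where 49.9% of all genes compared did, and the median was 0.10. Past 1.5-fold were 4 genes upwards and none downwards, against 2.25% and 0.952% of all genes compared. The AP-1 gene Junb had 11.08 in the Cre-labelled library and 10.36 in the GFP-labelled library, a difference of 0.72. Batf, also of the AP-1 group, differed by 0.66, the repressor gene Nfil3 by 0.66 and Maff, a small Maf gene, by 0.61. Nfil3 competes with the PAR group of bZIP activators for the same sites, and of that group Tef, Dbp and Hlf differed by -0.40, -0.42 and 0.10; they were named after their values were seen. Each of these differences is smaller than that of Cebpb.

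**Figure D5:**
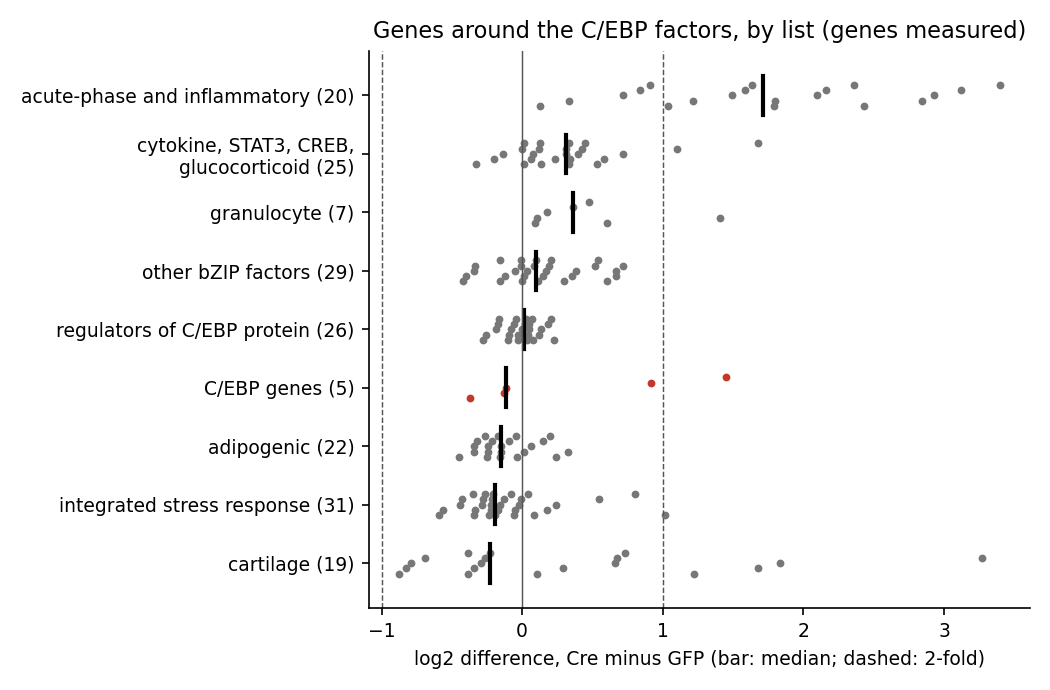
Log2 difference, Cre minus GFP (horizontal axis), of each measured gene in 9 lists around the C/EBP factors, with the number measured in parentheses, a bar at the median and dashed lines at 2-fold. The acute-phase and inflammatory list has a median of 1.71, the cytokine and related routes 0.31, the regulators of C/EBP protein 0.01 and the stress response -0.19.

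The labels were checked against the same table. Hdac3 had 10.68 in the Cre-labelled library and 10.69 in the GFP-labelled library, so its total gave no sign of the labelled knockout; the counts cover the whole gene, and no source used here names the exons that Cre would remove. The libraries are therefore named by their labels, and every direction given here rests on them. Of 16 measured chondrocyte markers 15 were lower in the Cre-labelled library, as were 6416 of all 12809 genes compared. Their median was -0.48, and Col2a1, named after its value was seen, had 19.97 and 20.35. Fibroblast markers had a median of 0.08 over 10 genes, adipocyte markers -0.15 over 7, endothelial markers 0.05 over 5 and muscle markers 0.15 over 7. Depth is unknown, since the deposited values hold no read counts, and the precision of a value in 1 library cannot be given.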

How the data were processed

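The 2 RNA libraries, from micromass cultures, were sequenced after TruSeq v2 mRNA library preparation, per the labels' protocols. Reads were handled with bcl2fastq 1.8.4, TopHat2 2.0.6 and HTSeq on mm10, per the submitters' processing notes. The authors deposited log2 values of normalized counts, 1 column per library; the transform is not given in the sources used here. A regularized log is inferred from a column heading and from a spread that is narrower at low levels (SD of the difference 0.15 below a mean of 7, 0.24 from 10 to 12), in which case differences of less abundant genes are understated. The deposited difference is GFP minus Cre in all 13138 rows and was turned to Cre minus GFP.

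A gene entered the comparison if the mean of its 2 log2 values was 5.64 or more, which is 50 normalized counts, and differences were judged by size alone. Members and lists were chosen with earlier results of these data known. Text names all members and Hdac3. For each list around the C/EBP factors it names the 4 largest absolute differences and the gene nearest 0 (cell type marker lists excepted). For Cebpb and Cebpd it names the 3 nearest genes. Cebpz, the genes that overlap members and those at the ends of each neighbour range stand outside this rule. Other genes are said to be named after their values were seen. Locations and lengths come from GENCODE M21, matched by symbol and chromosome for 90.6% of rows; of several models with one symbol the longest was used. Promoters are from RefSeq GRCm38.p6. Protein sequences, planned for a comparison of the zippers, were not used here. The fold counts and the median scaling were run on values with known differences added and no noise, which checks the arithmetic only. The scalings to equal totals were not checked in this way. Python 3.11.15, pandas 2.3.3, numpy 2.4.6 and matplotlib 3.10.9 were used.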

Additional observations from a re-analysis of the deposited data

How the results depend on the processing

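The differences of the 5 C/EBP genes moved by at most 0.015 when libraries were scaled to a median difference of 0, to equal totals, or to equal totals with Rn45s and Lars2 left out, and none changed direction. All 20 alternative ranks of members, with no minimum, a minimum 10 times higher, or 200 or 1000 nearest genes, stayed within 5 percentage points. The counts of 94 higher and 9 lower genes at 2-fold became 288 and 122 at 1.5-fold and 15 and 1 at 4-fold. Of 35 alternative list medians, 33 stayed within 0.1. The mean in place of the median gave 0.35 for the C/EBP genes and 0.28 for the cartilage genes, both of the other sign, and -0.0092 for the regulators of C/EBP protein. Shares of the per-kilobase sum depend on the gene length, as given with them. No granulocyte gene was left at a minimum 10 times higher, so that value was not run. No paired analysis was possible because there is a single library on each side. Leaving out a library, replicate error and counting intervals were not available for 1 library per group of unknown depth.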
